A study of Arabidopsis thaliana with 4 samples.

Results

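The RGP (REVERSIBLY GLYCOSYLATED PROTEIN) genes of Arabidopsis thaliana are RGP1 (AT3G02230), RGP2 (AT5G15650), RGP3 (AT3G08900), RGP4 (AT5G50750) and RGP5 (AT5G16510), and every entry of the 4 deposited tables of nuclear RNA SHAPE reactivity whose identifier began with one of these 5 loci was taken. The tables held 8 distinct RGP regions of 50040 in all. RGP1 and RGP2 each had 3 introns in the deproteinized table (6 of 34255 entries) and the same 3 introns in the in vivo table (6 of 24782 entries). No RGP gene had an entry among the 1068 poly(A) windows of the deproteinized table, and RGP1 and RGP2 had 1 each in the in vivo table (2 of 6605 entries). RGP3, with 3 annotated introns, and RGP4 and RGP5, with 2 each, had no entry in any table. The 2 introns of RGP5 overlap, end at the same nucleotide and follow alternative first exons, so they are alternative forms of 1 intron. With both forms counted, 6 of the 13 annotated RGP introns were measured.

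The material was whole wild-type Col-0 seedlings of 5 days, from which nuclei were isolated. In the deproteinized condition, nuclear RNA was freed of protein and then treated with NAI at 100 mM, while in the in vivo condition the intact seedlings received the same reagent before the nuclei were taken. Each condition had a control library made without NAI, which makes 4 samples. The authors merged the biological replicates before they calculated reactivities, so each condition gave 1 profile per region, no difference below has a replicate check, and no test was made. The tables held no read depth and no transcript level, so neither the precision of a score nor the tissue could be checked. In such bulk material, fewer cells of a type and less RNA per cell cannot be told apart.

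RGP proteins belong to the family of UDP-arabinopyranose mutases. These mutases interconvert the pyranose and furanose forms of UDP-arabinose. The furanose form is the one built into the arabinans, arabinogalactan proteins and extensins of the plant cell wall. RGP1, RGP2 and RGP3 have mutase activity, RGP4 is a close relative best known from seeds, and RGP5 is a more divergent member of the family. Introns are removed after U1 snRNA pairs with the 5′ splice site (5′ss) and after an adenosine within the intron, the branch point, is chosen near the 3′ splice site (3′ss). NAI acylates the 2′-hydroxyl of flexible nucleotides, so a high SHAPE reactivity marks a nucleotide that is more likely to be single-stranded and accessible.

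RGP1 lies on the plus strand of chromosome 3 (chr3:415389-417723) and RGP2 on the plus strand of chromosome 5 (chr5:5092140-5095302) in TAIR10 coordinates. Their exon and intron order is alike. Exon 2 was 0.251 kb long in RGP1, RGP2, RGP3 and RGP4, and exon 3 was 0.169 kb long in RGP1, RGP2 and RGP3. Intron 1 was long in both genes, with 0.598 kb in RGP1 and 0.613 kb in RGP2. The other introns were short, with 0.085 kb each for introns 2 and 3 of RGP1, 0.088 kb for intron 2 of RGP2 and 0.107 kb for its intron 3. All 6 introns interrupt the coding sequence. The exon ends are closely related, as all but 25 of the 300 aligned nucleotides within 50 nt of an intron were identical in RGP1 and RGP2, with 86% to 96% identity per end. The introns had diverged, with 57.1% to 58.9% of aligned positions identical.

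The 5′ splice sites carry the readings on which most of the comparisons below turn, and their sequences are given from 5′ to 3′ as DNA from the RefSeq assembly TAIR10.1, with exon first and intron after the capitals. The capitals mark the last 2 exon nucleotides, positions −2 and −1.
RGP1 intron 1 (chr3:415775-415824, plus strand): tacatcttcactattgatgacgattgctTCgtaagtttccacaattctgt
RGP2 intron 1 (chr5:5092515-5092564, plus strand): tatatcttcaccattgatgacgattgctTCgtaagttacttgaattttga
RGP1 intron 2 (chr3:416624-416673, plus strand): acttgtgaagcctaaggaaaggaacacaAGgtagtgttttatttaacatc
RGP2 intron 2 (chr5:5093379-5093428, plus strand): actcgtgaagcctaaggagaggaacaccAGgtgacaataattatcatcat
RGP1 intron 3 (chr3:416878-416927, plus strand): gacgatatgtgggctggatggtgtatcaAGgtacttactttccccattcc
RGP2 intron 3 (chr5:5093636-5093685, plus strand): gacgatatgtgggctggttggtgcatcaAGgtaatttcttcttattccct

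Intron 1 of both genes joins an exon that ends in C, a base found at −1 of 3.95% of the introns in the deproteinized table and 4.24% of those in vivo, to an intron that starts with GUAAGU, the 6 bases that pair with U1 snRNA, which stood at +1 to +6 of 8.21% and 8.22% of introns. Intron 2 of RGP2 starts with GUGACA, found in 0.116% and 0.118% of introns. Over the 9 nucleotides from −3 to +6, the RGP introns matched 5 to 7 of the bases that pair perfectly with U1 snRNA, and the median over all introns was 6.

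Scores in the intron tables run between 0 and 1 and appear to be scaled within each entry, that is, within 1 intron plus the last 50 nt of the exon before it and the first 50 nt of the exon after it. This was read from the values. Each of the 12 RGP profiles held scores of both 0 and 1, with 5% to 10.9% of its values at 0 and 5.01% to 15% at 1. The largest shares were in intron 3, with 8.11% at 0 and 14.6% at 1 in RGP1 after deproteinization, and 10.9% and 15% in RGP1 and 10.4% and 12.9% in RGP2 in vivo. A score was therefore read as relative to its own entry, and a difference between entries compares positions on separate scales. Each entry also held 1 recurring score shared by many nucleotides, at 21.5% to 29% of values in the deproteinized RGP entries and 16.6% to 33.5% in vivo. The medians over all introns were 26.6% and 34.4%.

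The nucleotide just before the intron, −1, reached the highest possible score in 4 of the 6 RGP introns after deproteinization and in 3 of the 6 in vivo. The same was true of 31.5% of all introns in the deproteinized table and 26.5% in vivo. Intron 3 of both genes and intron 1 of RGP2 had it in both conditions, and intron 1 of RGP1 had it after deproteinization only. Intron 2 of both genes fell short of it in both conditions.

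In intron 3 the score at −1 was 1 in the deproteinized and 1 in the in vivo condition in RGP1, and 1 and 1 in RGP2. The means of the flanks (exon −20 to −3 and intron +1 to +20) were 0.367 and 0.254 in RGP1, and 0.347 and 0.455 in RGP2, so −1 stood above its surroundings in every profile of intron 3. The nucleotide before it differed between the genes. At −2, RGP1 scored 2.27e-05 after deproteinization and 0 in vivo, and RGP2 scored 0.775 and 1. The in vivo scores lay at the ends of the scale in a sparsely measured stretch. RGP1 was also at 0 at −4 and −3, and RGP2 also at 1 at −3. Exon positions −50 to −14 and −11 of RGP1 and −50 to −7 of RGP2 had no value there. The exon ends in AG in both.

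Intron 1 of RGP1 was the one RGP intron whose score at −1 differed by 0.5 or more between conditions. In RGP1 the score at −1 was 1 in the deproteinized condition and 0 in vivo, against flank means of 0.471 and 0.504. In RGP2, whose bases from −2 to +6 are the same, it was 1 and 1, against flank means of 0.363 and 0.360. A rise of at least 0.5 at −1 after deproteinization thus occurred in 1 of 6 RGP introns, where 12.3% of the introns shared by the tables had one. The in vivo flank of RGP1 intron 1 rested on 28 of 38 nucleotides, because exon positions −21 to −11 had no value there. Next to −1 of that profile, −2 was also at 0, and +1 and +2 were at 1.

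Intron 2 had the lower readings. RGP1 scored 0.199 after deproteinization and 0.0252 in vivo at −1, below its flank means of 0.332 and 0.271. RGP2 scored 0.529 and 0.603, above its flank means of 0.336 and 0.244. No nucleotide within 20 nt of the 5′ss of intron 2 reached 1 in either gene or condition, whereas each profile of introns 1 and 3 had at least 1 that did.

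**Figure D1:**
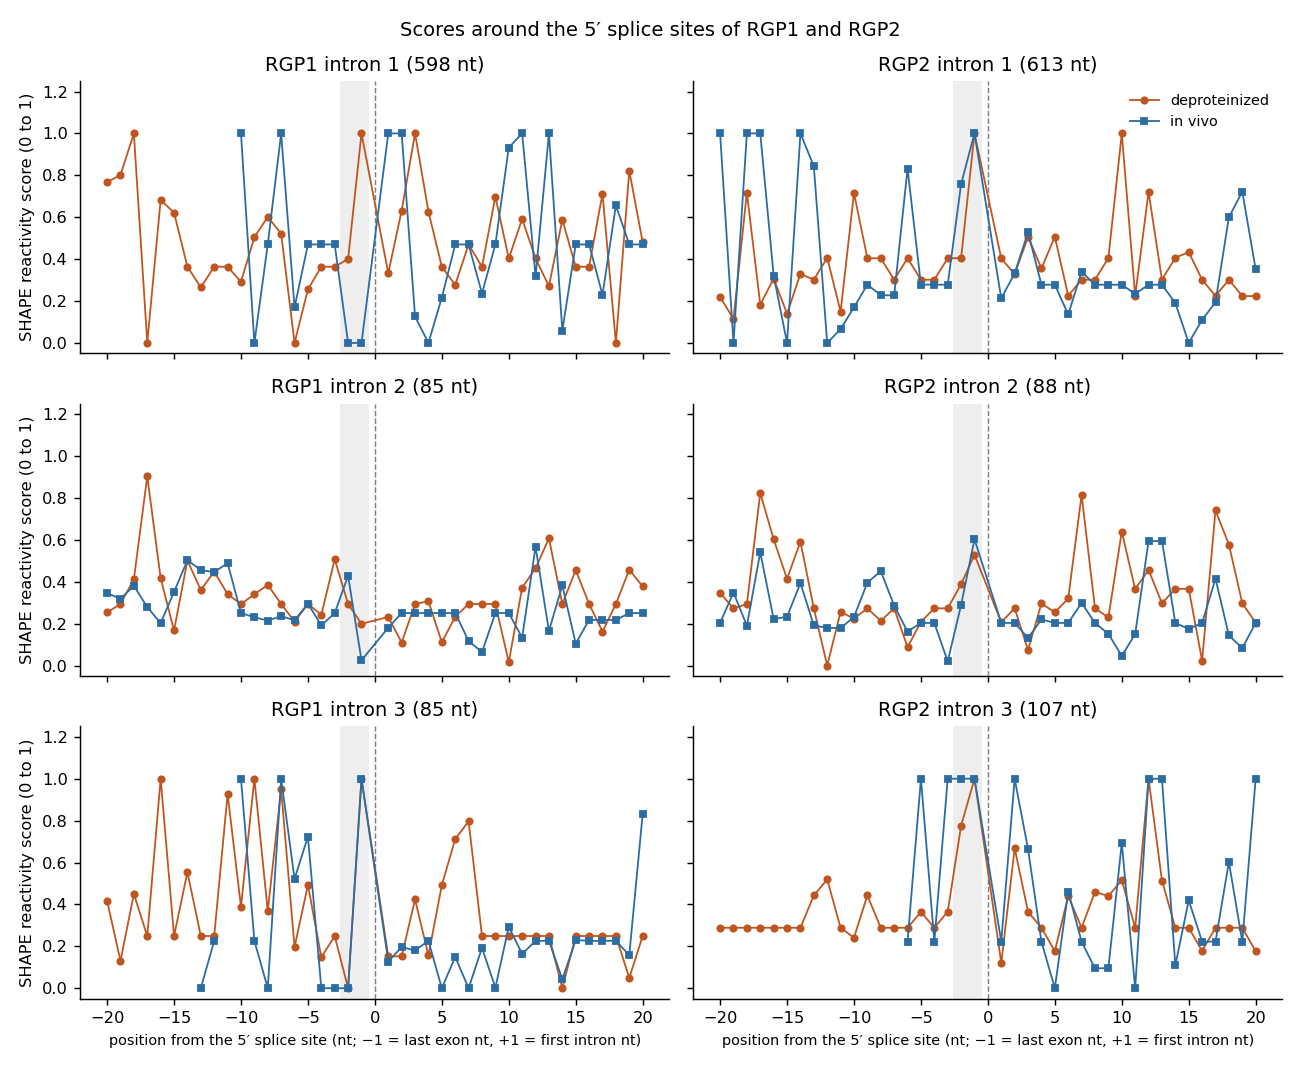
SHAPE reactivity score (0 to 1) of each nucleotide from −20 to +20 around the 5′ss of the 3 introns of RGP1 (left) and RGP2 (right) in the deproteinized (circles) and in vivo (squares) conditions; the dashed line is the exon-intron boundary, the grey band covers −2 and −1, and gaps are nucleotides with no value. At −1 both conditions reached 1 in intron 3 of both genes and in intron 1 of RGP2, while intron 1 of RGP1 stood at 1 deproteinized and 0 in vivo.

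Counted by intron, −1 was above its flank mean in 5 of 6 RGP introns after deproteinization (67.6% of all introns) and in 4 of 6 in vivo (60.6%). It reached at least 0.6 in 4 of 6 (49.5%) and in 4 of 6 (41.7%). The position −2 was above the flanks in 3 of 6 (56%) and in 4 of 6 (44.6%), namely in all 3 introns of RGP2 in both conditions and, in vivo, in RGP1 intron 2. The median of −1 minus flanks was 0.581 in the deproteinized and 0.452 in the in vivo condition over the RGP introns, and 0.259 and 0.130 over all introns. By the base at −1, the 2 introns with C there were above the flanks in 2 of 2 after deproteinization (65.3% of all introns with C at −1) and 1 of 2 in vivo (60.1%), and at 0.6 or more in 2 of 2 (47.1%) and 1 of 2 (39.2%). The 4 introns with G there were above the flanks in 3 of 4 (68.5%) and 3 of 4 (61.7%), and at 0.6 or more in 2 of 4 (50.9%) and 3 of 4 (43.4%). With 6 introns of 2 related genes, these shares were read as a description.

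At the other end of the intron, the branch point was looked for as a pyrimidine, U, any base, A and a pyrimidine, on the transcribed strand, with the A at 15 to 50 nt from the intron end, and the nearest match was taken. This pattern was present in 79.9% of introns in the deproteinized table and 78.8% in vivo, and in 4 of the 6 RGP introns. Intron 2 and intron 3 of RGP2 had no match. The last 45 nt of these 4 introns with 5 nt of exon are shown because the branch scores below refer to them, with the matched 5 bases in capitals.
RGP1 intron 1 (chr3:416358-416407, plus strand): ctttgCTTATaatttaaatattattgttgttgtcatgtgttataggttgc
RGP2 intron 1 (chr5:5093113-5093162, plus strand): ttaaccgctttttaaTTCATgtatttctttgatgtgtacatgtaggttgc
RGP1 intron 2 (chr3:416694-416743, plus strand): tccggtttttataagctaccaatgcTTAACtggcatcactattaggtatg
RGP1 intron 3 (chr3:416948-416997, plus strand): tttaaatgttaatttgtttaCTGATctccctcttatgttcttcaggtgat

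The candidate branch A gave like readings in intron 1 of both genes. It scored 1 after deproteinization and 0 in vivo in RGP1, where it lay 37 nt from the intron end, and 1 and 0.0509 in RGP2, where it lay 27 nt from it. In the short introns of RGP1 the order was the other way round. The A of intron 2 scored 0.206 after deproteinization and 0.421 in vivo, and that of intron 3 scored 0.240 and 0.565. Against the flanks (3 to 10 nt on either side), the A was higher in 2 of 4 introns after deproteinization (54.7% of all introns with the pattern) and in 2 of 4 in vivo (52.9%), and these were the 2 long introns in the deproteinized and the 2 short ones in the in vivo condition.

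Just before the 3′ss, intron 1 of RGP1 stood out against its own upstream stretch. Positions −7 to −4 averaged 0.758 after deproteinization and 0.885 in vivo there, against 0.422 and 0.462 over −20 to −8. The usual order was the reverse, as −7 to −4 was the lower of these stretches in 63.7% of introns in the deproteinized table and 60.4% in vivo, and in 4 and 3 of the 6 RGP introns. All 3 introns of RGP2 changed order between conditions. Intron 1 had 0.352 against 0.495 after deproteinization and 0.512 against 0.397 in vivo, and intron 3 had 0.351 against 0.397 and 0.462 against 0.252. Intron 2 changed in the other direction, with 0.465 against 0.320 after deproteinization and 0.284 against 0.304 in vivo.

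The long introns could be followed over their whole length. In RGP1 intron 1 the most reactive 25 nt were the same in both conditions, from the nucleotide 26 to that 2 from the intron end, with means of 0.522 after deproteinization and 0.596 in vivo. This stretch runs up to the 3′ss. The study left the closing AG of introns out of its calculation, and this window includes the A of it. In RGP2 intron 1 the peaks lay apart, at 63.6% to 67.5% of its length after deproteinization (mean 0.553) and at 5.71% to 9.62% in vivo (mean 0.473). Of the 4 short introns, RGP1 intron 2 had its peak at nucleotides 60 to 84 in both conditions (0.396 and 0.333). The peak windows differed in the other 3, at 32 to 56 after deproteinization and 40 to 64 in vivo in RGP1 intron 3, at 5 to 29 and 12 to 36 in RGP2 intron 2, and at 74 to 98 and 34 to 58 in RGP2 intron 3. The lowest 25 nt were not the same window in the 2 conditions in any of the 6 introns.

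**Figure D2:**
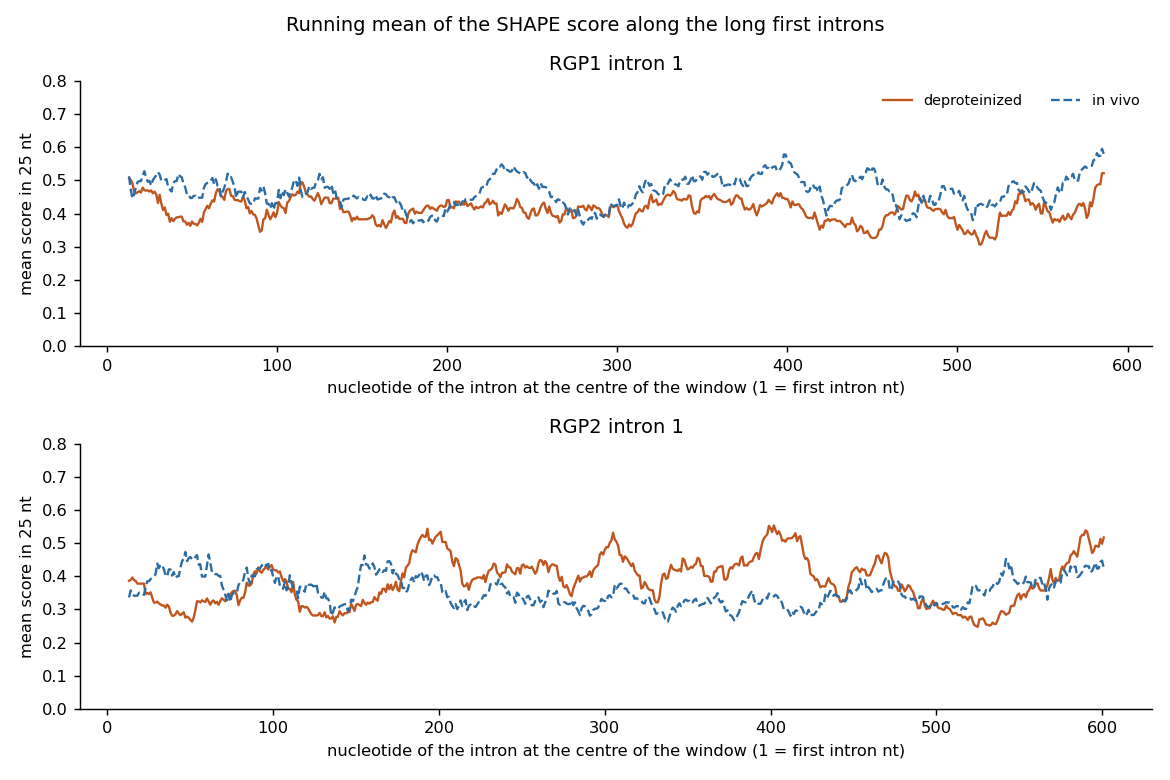
Mean SHAPE reactivity score in sliding windows of 25 nt along intron 1 of RGP1 (top) and RGP2 (bottom), in the deproteinized (solid) and in vivo (dashed) conditions, plotted at the centre of each window. The RGP1 profiles both peaked in the last window before the final nucleotide, at 0.522 deproteinized and 0.596 in vivo, while the RGP2 profiles peaked at 0.553 and 0.473 in different places.

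Introns were set against their exons by mean score. Scores of the exon after an intron cannot be assigned to unspliced RNA alone. The mean of the 50 nt downstream exceeded the intron mean in 6 of 6 RGP introns after deproteinization (81.5% of all introns) and in 5 of 6 in vivo (75.1%), counts near the shares over the whole table. RGP1 intron 3 had the widest gap, with a downstream mean of 0.610 after deproteinization and 0.576 in vivo, against intron means of 0.329 and 0.259. The exception was RGP2 intron 1 in vivo, with 0.350 downstream and 0.356 in the intron. The exon before the intron was above it in 4 of 6 introns in the deproteinized (54.7%) and 4 of 6 in the in vivo condition (51.4%).

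Some nucleotides had no value, and most of them lay in exon 3 of both genes. In vivo, the end of exon 3 before intron 3 had no value at −50 to −14 and at −11 in RGP1, which is 38 nt, and at −50 to −7 in RGP2, which is 44 nt. After deproteinization no nucleotide was missing there in either gene. The in vivo mean of that exon end, 0.391 in RGP1 and 0.741 in RGP2, therefore described the few nucleotides nearest the 5′ss, and the flank means of intron 3 in vivo rested on 30 and 24 of 38 nucleotides. At the start of exon 3, 6 nt had no value in RGP1 after deproteinization, and 4 nt in RGP1 and 8 nt in RGP2 had none in vivo. Over all introns, 12.2% of entries in the deproteinized table and 31.2% in vivo had at least 1 such nucleotide.

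The mean scores of the RGP introns lay within 0.0707 of each other in the 2 conditions. The intron mean was 0.418 after deproteinization and 0.470 in vivo in RGP1 intron 1, 0.339 and 0.283 in intron 2, and 0.329 and 0.259 in intron 3. In RGP2 it was 0.390 and 0.356, 0.327 and 0.276, and 0.347 and 0.372 in introns 1, 2 and 3. It was thus higher after deproteinization in 4 of 6 RGP introns, against 54.4% of the 14929 introns present in both tables. The exceptions were the long intron of RGP1 and intron 3 of RGP2. The median difference, deproteinized minus in vivo, was 0.0422 over the RGP introns and 0.00651 over all introns. Since the entries of the 2 conditions appear to be scaled separately, these differences compare positions on 2 scales.

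Single nucleotides moved both ways. Of 2065 RGP nucleotides with a value in both conditions, 5.71% were higher by at least 0.5 after deproteinization and 6.73% lower, where the shares over all introns were 5.64% and 5.38%. RGP2 intron 3 was the most one-sided entry, with 4 nucleotides higher (2.45%) and 19 lower (11.7%). RGP1 intron 3 had 11 higher (7.48%) and 8 lower (5.44%).

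Over whole entries, exon ends included, the conditions resembled each other more in the entries of the short introns than in those of the long ones. Pearson's r across the nucleotides of an entry, deproteinized against in vivo, was 0.0309 in RGP1 intron 1 and 0.146 in RGP2 intron 1. It was 0.344 and 0.401 in intron 2 of RGP1 and RGP2, and 0.544 and 0.444 in intron 3. The number of points was that of the whole entry, less 11, 10 and 38 nucleotides without a value in introns 1, 2 and 3 of RGP1 and 0, 8 and 44 in RGP2, from entries of 0.698, 0.185 and 0.185 kb in RGP1 and 0.713, 0.188 and 0.207 kb in RGP2. The RGP median was 0.373 and the median of all shared introns 0.317. Length went with this in the whole table too, since r had a median of 0.244 (quartiles 0.183 and 0.325) over the shared introns of 0.500 to 0.613 kb, which were 2.71% of all, and of 0.340 over 7393 shared introns of 80 nt to under 120 nt. Both long RGP introns were below the lower quartile of introns of their length. Each entry held 50 nt of exon on either side, which is a larger share of a short entry. How far this share goes with the order by length was not tested. These values describe nucleotides of 1 profile, which are not independent of each other, and carry no test.

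The exon ends and the intron were also taken apart. Over the 100 exon nucleotides of an entry, r was 0.171, 0.411 and 0.576 in introns 1, 2 and 3 of RGP1, and 0.341, 0.445 and 0.648 in RGP2. Over the intron alone it was −0.0106, 0.185 and 0.0996 in RGP1, and 0.0891, 0.273 and 0.212 in RGP2. Within each gene the long intron still had the lowest r, but the short intron 3 of RGP1 was near the long intron 1 of RGP2. The exon ends had the higher r in 6 of 6 RGP introns, and in 84.4% of all shared introns, where the medians were 0.418 for exon ends and 0.190 for introns, so this order was that of the whole table. In intron 3 the exon part rested on 62 nucleotides in RGP1 and 56 in RGP2. The exon part includes the exon after the intron, whose scores cannot be assigned to unspliced RNA alone.

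**Figure D3:**
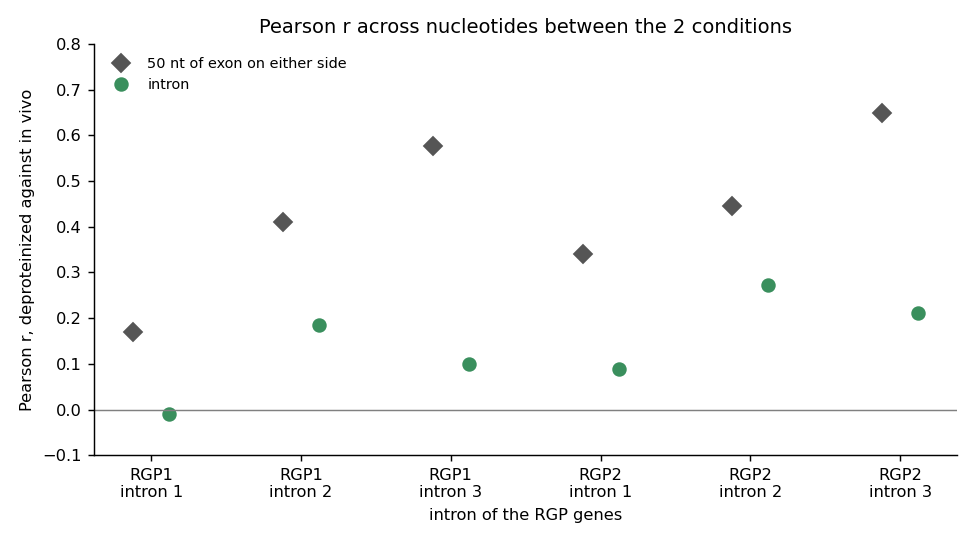
Pearson's r across nucleotides between the deproteinized and in vivo scores for each RGP intron, computed over the 50 nt of exon on either side (diamonds) and over the intron (circles). The exon ends had the higher r in all 6 introns, from 0.171 in RGP1 intron 1 to 0.648 in RGP2 intron 3.

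RGP1 and RGP2 offer the same exon letters in 2 genes, so their exon ends could be set against each other nucleotide by nucleotide. Of the 300 aligned positions, 25 differed in base and 62 of the identical ones lacked a value in at least 1 of the 4 profiles. Over the rest, RGP1 against RGP2 gave r = 0.0407 after deproteinization and 0.141 in vivo. The same nucleotides in the same gene, deproteinized against in vivo, gave r = 0.456 in RGP1 and 0.486 in RGP2. The pooled r between genes hides a spread among exon ends, here taken with differing bases included. After deproteinization r was 0.504 for the exon before intron 2 and from −0.216 to 0.178 for the others. In vivo the exon before intron 2 gave −0.114, and the ends ran from −0.131 to 0.166. The exon before intron 3 had too few values in vivo. On the separate scales of their entries, scores of the genes lay at least 0.5 apart at 55 positions (25.8%) after deproteinization and 44 (20.7%) in vivo. Scores of the conditions lay that far apart at 29 positions (13.6%) in RGP1 and 29 (13.6%) in RGP2. With scores of 0 left out, an alternative chosen after the data were seen, the r between genes was 0.186 after deproteinization (n = 170). Each pair of points shares its base and most of the exon letters around it. The points from exons after introns cannot be assigned to unspliced RNA alone.

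A few identical nucleotides were high in every profile. Of the identical positions with a value in every profile, 7 scored at least 0.6 in both genes and both conditions, and none scored 0 in all 4 profiles. They were +45 and +46 of the exon after intron 1, −1 of intron 3, and +23, +24, +29 and +38 of the exon after intron 3. All but −1 thus lay after an intron, where scores cannot be assigned to unspliced RNA alone. Of these, +45, +46, −1 and the +24 nucleotide were at 1 in all 4 profiles. By contrast, 53 positions reached 0.6 in exactly 1 of the 4 profiles, 37 in 2, 21 in 3 and 95 in none. How many would be high in all 4 if the profiles were unrelated was not computed.

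**Figure D4:**
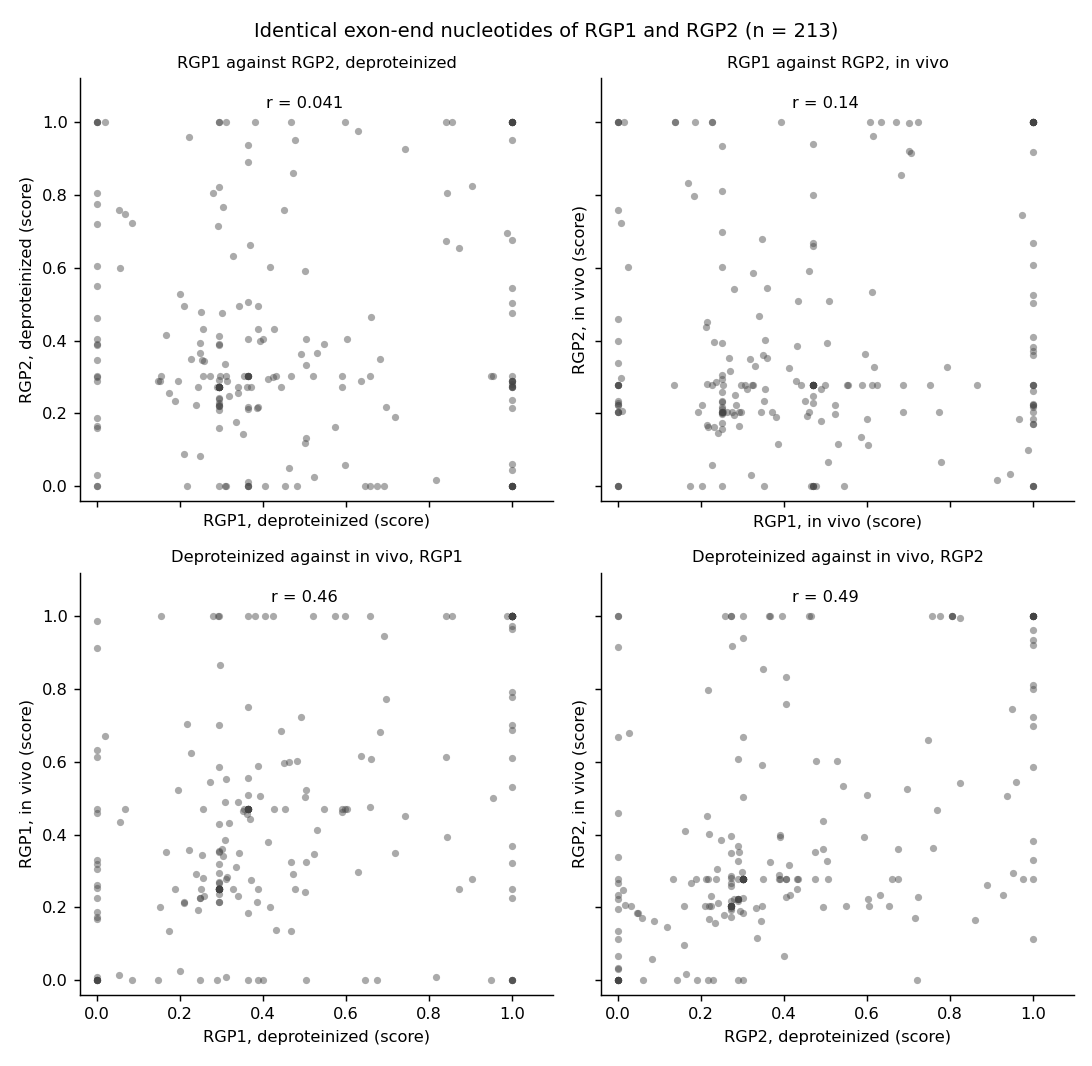
SHAPE reactivity scores (0 to 1) of the exon-end nucleotides that are identical in RGP1 and RGP2 and have a value in all 4 profiles, set gene against gene in each condition (top) and condition against condition in each gene (bottom); each point is 1 nucleotide and darker points overlap. Pearson's r was 0.041 and 0.14 between the genes, and 0.46 and 0.49 between the conditions.

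Mean scores were also taken per base. In RGP1 the mean score of A, C, G and U was 0.434, 0.373, 0.417 and 0.425 after deproteinization, and 0.437, 0.407, 0.429 and 0.444 in vivo. In RGP2 it was 0.371, 0.364, 0.384 and 0.397 after deproteinization, and 0.376, 0.292, 0.358 and 0.383 in vivo. C was the lowest of the 4 bases in each of these profiles, as it was over all introns (0.348 after deproteinization and 0.331 in vivo). The highest over all introns was A, with 0.384 and 0.386. The range over the bases was wider than that in RGP1 after deproteinization and in RGP2 in vivo, and narrower in the other profiles.

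The poly(A) windows of 100 nt were measured for RGP1 and RGP2 in vivo only. Cleavage and polyadenylation act on the 3′ end of the transcript, guided by a signal of which AAUAAA is the best known form. The marked site lay at position 417497 of chromosome 3 in RGP1, 0.193 kb after the end of the coding sequence, and at position 5094359 of chromosome 5 in RGP2, 0.266 kb after it. The annotated transcript ends lay a further 0.226 kb and 0.943 kb downstream. Scores in these windows run between 0 and 2. The sequences cover AATAAA, in capitals, and the site, and are shown because these 6 bases lie on opposite sides of the site in the 2 genes.
RGP1 poly(A) site (chr3:417494-417523, plus strand): gtttttcgtttttgtttcaatAATAAAaaa
RGP2 poly(A) site (chr5:5094338-5094363, plus strand): cattAATAAAaaggccttttcatagg

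In RGP2 AAUAAA lay upstream at −17 to −12, and in RGP1 downstream at +18 to +23 with none upstream. The paper places the signal upstream of the site, so the downstream AAUAAA of RGP1 was not taken as the signal of its marked site. AAUAAA was found within −40 to −10 of 6.97% of the in vivo windows and within +1 to +49 of 4.38%, on the transcribed strand. Its mean score was 1.23 in RGP2, where 3 nucleotides in a row from −16 to −14 stood at 2, and 1.01 in RGP1.

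The cleavage region of RGP2 was more reactive than its surroundings. Positions −4 to +1 averaged 1.08 and positions −28 to −17 averaged 0.794, against 0.715 over the rest of −40 to +40. Set against the 10 nt on either side of it, −28 to −17 was lower, with a difference of −0.148. The site itself scored 1.29. In RGP1, −4 to +1 averaged 0.966 and −28 to −17 averaged 0.993, against 1.13 over the rest. Thus 1 of 2 RGP windows was above its surroundings in either region, where 49.9% of all windows were so at −4 to +1 and 52.9% at −28 to −17. The difference at −4 to +1 in RGP2 was 0.364, above the upper quartile of all windows (0.184), and that in RGP1 was −0.162, below the lower quartile (−0.158). Set against the 10 nt on either side, the difference was 0.128 in RGP2 and −0.0102 in RGP1. Quartiles over all windows were not computed for that comparison.

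The RGP1 window carried less detail. In it 41 of 100 nucleotides shared 1 recurring score of 0.985, among them 5 of the 6 from −4 to +1 and 8 of the 12 from −28 to −17. In RGP2, 13 of 100 shared the score 0.584, and none of them lay in these regions. The median share over all windows was 26%. The mean of the whole window was 1.08 in RGP1 and 0.700 in RGP2, where the median of all windows was 0.778.

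**Figure D5:**
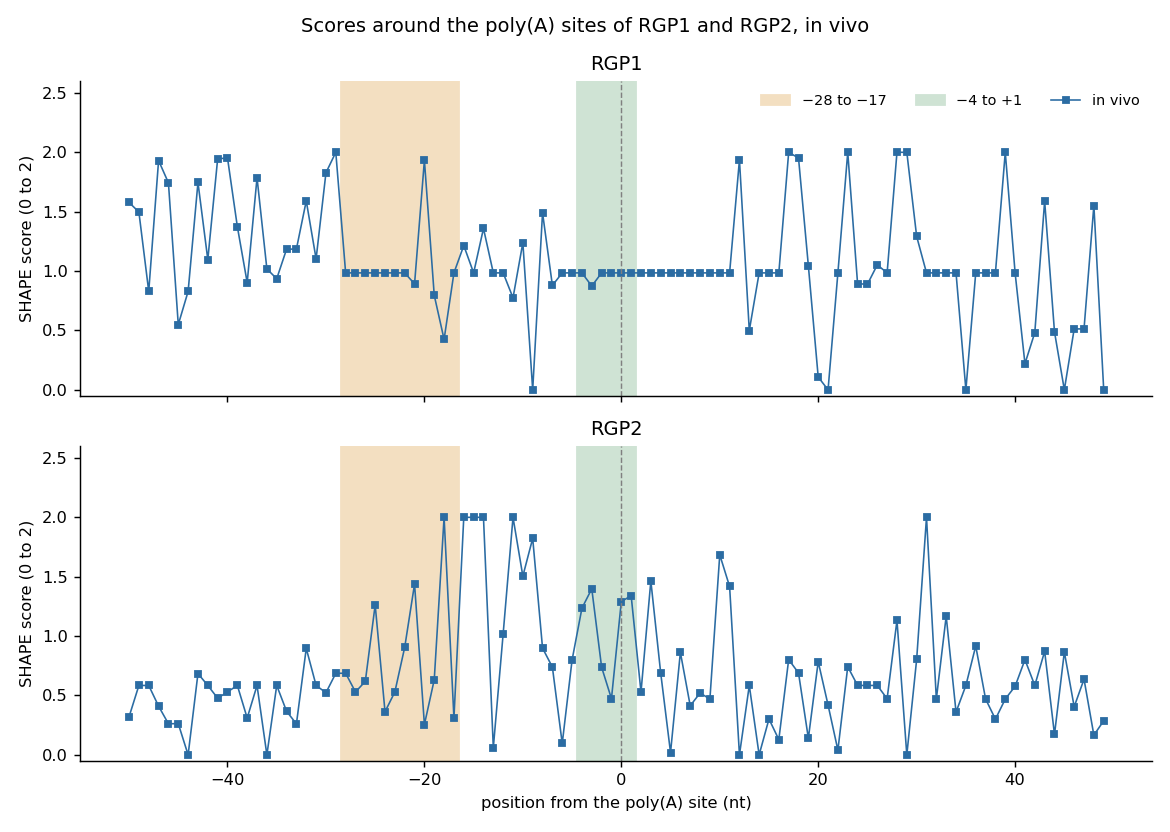
SHAPE reactivity score (0 to 2) of each nucleotide around the poly(A) site (position 0, dashed line) of RGP1 (top) and RGP2 (bottom) in vivo, with −28 to −17 and −4 to +1 shaded. The flat stretches of RGP1 are the 41 nucleotides at the recurring score of 0.985, and RGP2 averaged 1.08 over −4 to +1 against 0.715 over the rest.

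Folding the 100 nt around each 5′ss with the scores as a guide gave unpaired probabilities that went in no fixed order with the score at −1. The mean unpaired probability of −2 and −1 was 0.229 after deproteinization and 0.215 in vivo in RGP1 intron 1, 0.129 and 0.0585 in intron 2, and 0.499 and 0.00261 in intron 3. In RGP2 it was 0.224 and 0.526, 0.690 and 0.526, and 0.00604 and 0.586. RGP2 intron 2, with a middling score at −1, had the highest value after deproteinization, and RGP2 intron 3, with a score of 1 at −1 in both conditions, had the lowest after deproteinization and the highest in vivo. In vivo, 44 of the exon nucleotides folded there, and 38 in RGP1 intron 3, had no value, while none was missing after deproteinization. Without scores, the median over the RGP introns was 0.179, and RGP2 intron 3 gave 0.0384. The values moved with the length folded, since 60 nt around RGP2 intron 1 gave 0.775 after deproteinization. Around the poly(A) sites, the mean unpaired probability of −4 to +1 was 0.543 in RGP1, against 0.623 over the rest of the window, and 0.994 in RGP2, against 0.512. Folded without scores, it was 0.333 in RGP1 and 0.996 in RGP2.

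The genes that make, activate and use UDP-arabinose were represented by a list of 22, which covers the UDP-glucose dehydrogenases (UGD), UDP-xylose synthases (UXS), the UDP-xylose epimerase MUR4, the UDP-apiose and UDP-xylose synthases (AXS), the arabinose kinase ARA1, the UDP-sugar pyrophosphorylase USP and arabinosyltransferases. After deproteinization 14 of them had 81 introns, of which 43 (53.1%, against 67.6% of all introns) had −1 above the flanks and 29 (35.8%, against 49.5%) had at least 0.6. In vivo 11 of them had 70 introns, with 42 of 69 (60.9%, against 60.6% of all introns) above the flanks and 31 (44.9%, against 41.7%) at 0.6 or more. With the recurring score taken as missing, 29 were above the flanks after deproteinization and 27 in vivo. Introns left without a value at −1 or without a flank mean then counted as not above. The share of all introns was not computed in that way. The median of −1 minus flanks was 0.0242 after deproteinization and 0.0894 in vivo, below the medians of all introns in both conditions.

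Single pathway genes spread widely. After deproteinization UXS5, a UDP-xylose synthase, had the highest mean of −1 minus flanks (0.425 over 4 introns) and UXS4, of the same family, the lowest (−0.0998 over 4), among genes with at least 3 introns. In vivo UXS2, named AUD1 in RefSeq, was highest (0.706 over 4) and UXS4 again lowest (−0.0314 over 3). The most introns were 10 each for AXS1, AXS2, USP, UXS1 and the arabinosyltransferase XEG113 after deproteinization, with means of 0.132, 0.396, −0.0178, 0.163 and 0.0214. In vivo they were 13 each for ARA1 and UXS3, with means of 0.174 and 0.166. Poly(A) windows of the list numbered 3 in 2 genes after deproteinization and 10 in 4 genes in vivo.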

How the data were processed

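The deposited values are SHAPE reactivity scores, 1 per nucleotide, in 4 tables without replicate columns. As the study states, the authors trimmed reads with Cutadapt 1.14, aligned them to TAIR10 with HISAT2 2.1.0, merged replicates, counted reverse-transcription stops in libraries with and without NAI and normalised the reactivities. Scaling within each region was read from the values. For introns they kept unsplit reads that mapped to exon-intron junctions and introns, to describe unspliced RNA. The study states that reads starting just after the 3′ss cannot be given to spliced or unspliced RNA with confidence. It left the closing AG of the intron out of its calculation. The entries used here hold scores for that AG and for the exon after the intron. Those scores cannot be assigned to unspliced RNA alone. Depth was not known.

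Members and lists were chosen with earlier results of these data known. Every RGP entry is described, and of the pathway list a gene is named where it has the most introns, or the highest or lowest mean of −1 minus flanks among genes with at least 3 introns. Introns of at least 40 nt and at most 0.613 kb formed the background, and a flank mean needed values at no fewer than 50% of its nucleotides. The site of a poly(A) window was taken as nucleotide 51. With 1 merged profile per condition, counts and medians are given beside those of all regions, without tests. RNA was folded with ViennaRNA 2.7.2 at 37 °C (slope 1.8, intercept −0.6, poly(A) scores halved), and values were computed in Python 3.11.15 with NumPy 2.4.6. Measures were tested on simulated data. Alternatives treated scores of 0 or the recurring score as missing and changed flanks, thresholds, branch pattern, poly(A) site, correlation and folding.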

Additional observations from a re-analysis of the deposited data

How the results depend on the processing

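Of 91 alternatives over 32 results, 81 left the result the same, 6 changed its sign and 4 moved it further. A value was called the same if it kept its sign and moved by less than its spread over the introns or windows. A count could move by no more than 1.5 times. An r over identical exon ends had to keep its sign and move by less than 0.1. The alternative of introns present in both conditions could only give the same count, since all RGP introns measured are in both. Median −2 minus flanks after deproteinization, 0.00155 as reported, was −0.0407 with the recurring score missing. Median branch A minus flanks was 0.247 after deproteinization and −0.115 in vivo, and became −0.0411 and 0.302 with CURAY as the pattern, which 1 RGP intron holds, and 0.0828 in vivo with scores of 0 missing. Median −7 to −4 minus −20 to −8 after deproteinization, −0.0413, was 0.0507 with scores of 0 missing. The RGP2 poly(A) region −28 to −17, 0.0795 above the rest, was −0.148 against the 10 nt on either side of it, and −4 to +1 went to 0.128 there from 0.364. The median intron mean after deproteinization, 0.343, was 0.296 as a median of nucleotides. The 42 pathway introns above the flanks in vivo became 27 with the recurring score missing, where introns left without a value counted as not above. The r over identical exon ends, with alternatives chosen after the data were seen, was 0.186 between genes after deproteinization and 0.561 between conditions in RGP1 with scores of 0 missing. The cause was not tested in any of these. No replicate could be left out, and no paired analysis was possible because each condition is 1 merged profile. The depth behind a score is unknown, so differences of single nucleotides carry no error.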
